A study of Mus musculus with 6 samples.

Results

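MHC class I and peptide loading genes were followed in natural killer (NK) cells, as the 10 genes B2m, H2-K1, H2-D1, H2-T23, H2-Q7, Tap1, Tap2, Tapbp, Erap1 and Nlrc5. They were chosen by name, and all 10 were found among the 24343 genes of the tables. The cells came from spleens of female C57BL/6 mice and had been sorted as NK1.1-positive and NKp46-positive cells without CD3 or CD1d tetramer staining, and their RNA was sequenced. The IL-15C group (3 libraries) came from mice given IL-15 cytokine complexes and the IL-2C group (3 libraries) from mice given IL-2 cytokine complexes. The strain and the sort are the same in both groups, and the labels name neither the carrier protein of the complexes nor a dose or a time. Untreated mice were not analysed here, so every difference is one between the treatments. The study concerns cerebral malaria, and the comparison asks how NK cells differ between the 2 kinds of complex. None of the 10 genes passed the test, which only 6.44% of all tested genes passed. B2m, H2-K1 and H2-D1 were among the 15 most abundant genes at nearly equal levels in both groups. Nlrc5 and H2-Q7 were the 2 genes whose IL-15C values all lay above the IL-2C values, by 1.17-fold and 1.12-fold, an order that 8.15% of all tested genes showed. H2-Q7 shares its locus with H2-Q9, and the sum of the pair did not separate the groups (fold 0.999).

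Class I molecules carry peptides of cytosolic proteins to the cell surface, where T cells and NK cells read them. A heavy chain, encoded by the H2 genes in mouse, pairs with the light chain B2m in the endoplasmic reticulum. Peptides made by the proteasome are pumped in by the Tap1 and Tap2 transporter, trimmed by the aminopeptidase Erap1, and loaded with the help of tapasin, the product of Tapbp. Nlrc5 is a transcriptional coactivator of these genes that acts through a conserved promoter module, and interferons raise the whole set. NK cells are themselves held in check by inhibitory receptors that bind class I. These include some, not all, of the Ly49 receptors, for classical heavy chains. Another is CD94 with NKG2A, for the non-classical Qa-1, the product of H2-T23.

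The sequences below mark letters like those of promoter elements known to control such genes, for the light chain and the heavy chains of the set. Not every window holds all of them. Each is a window of 300 bases from RefSeq on GRCm38.p6 (the build also called mm10), from 250 bases before the annotated start to 50 bases from the start on, printed 5′ to 3′ on the gene's strand. Capitals mark matches to any of 4 motifs on either strand. These are a kappaB element for NF-kappaB factors (GGG, 2 free bases, TT, 1 free base and CC), an element for interferon regulatory factors (IRF, TTTCNNTT), the core of a cyclic AMP response element as in the X box (TGACG) and the CCAAT core of the Y box. The letters were chosen after the sequences had been seen. In H2-K1, which has 2 annotated starts, the first listed was used.
B2m, chr2:122147437-122147736, plus strand: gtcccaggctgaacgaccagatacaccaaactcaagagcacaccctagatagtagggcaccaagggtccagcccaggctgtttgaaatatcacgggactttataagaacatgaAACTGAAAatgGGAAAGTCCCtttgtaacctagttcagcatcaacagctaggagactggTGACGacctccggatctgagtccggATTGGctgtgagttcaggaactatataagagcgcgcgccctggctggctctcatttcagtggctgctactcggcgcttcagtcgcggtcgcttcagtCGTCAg
H2-K1, chr17:34000298-34000597, minus strand: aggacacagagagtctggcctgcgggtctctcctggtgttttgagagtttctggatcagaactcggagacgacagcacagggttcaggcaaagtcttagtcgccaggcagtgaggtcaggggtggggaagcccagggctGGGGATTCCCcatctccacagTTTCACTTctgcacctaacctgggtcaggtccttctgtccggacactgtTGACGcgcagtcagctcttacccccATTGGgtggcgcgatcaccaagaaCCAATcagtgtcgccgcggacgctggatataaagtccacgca
H2-D1, chr17:35262844-35263143, plus strand: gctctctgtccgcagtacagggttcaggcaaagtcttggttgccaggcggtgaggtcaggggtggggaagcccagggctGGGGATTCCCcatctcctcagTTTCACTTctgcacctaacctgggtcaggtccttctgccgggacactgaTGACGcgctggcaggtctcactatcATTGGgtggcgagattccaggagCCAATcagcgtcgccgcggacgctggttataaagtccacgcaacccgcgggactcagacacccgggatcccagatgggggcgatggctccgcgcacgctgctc
H2-Q7, chr17:35438905-35439204, plus strand: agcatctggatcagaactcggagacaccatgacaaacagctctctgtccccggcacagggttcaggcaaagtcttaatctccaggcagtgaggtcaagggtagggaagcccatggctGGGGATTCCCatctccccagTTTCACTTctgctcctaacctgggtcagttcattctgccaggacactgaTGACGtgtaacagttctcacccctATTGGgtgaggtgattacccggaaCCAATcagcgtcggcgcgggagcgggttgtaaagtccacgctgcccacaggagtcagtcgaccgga
H2-T23, chr17:36032652-36032951, minus strand: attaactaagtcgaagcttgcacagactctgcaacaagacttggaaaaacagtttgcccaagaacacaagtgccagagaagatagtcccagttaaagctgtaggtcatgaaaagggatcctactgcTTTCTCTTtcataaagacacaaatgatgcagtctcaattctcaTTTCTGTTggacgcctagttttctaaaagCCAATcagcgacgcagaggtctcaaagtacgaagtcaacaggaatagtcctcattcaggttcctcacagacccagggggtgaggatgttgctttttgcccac

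The windows of B2m, H2-K1, H2-D1 and H2-Q7 held matches to all 4 motifs. Of the 27025 promoter windows of genes in the table, 27 did (0.0999%), while 4.71% held the kappaB letters, 24.2% the IRF letters, 21% the CRE core and 37.9% the CCAAT core. As the letters were chosen after the sequences had been seen, these shares show how common the letters are and test no enrichment. In H2-K1, H2-D1 and H2-Q7 the matches stood in one order, kappaB, IRF, CRE core and then a pair of CCAAT cores on opposite strands. In B2m the IRF match came first, and both it and the kappaB match were on the other strand. B2m lacked the pair of CCAAT cores and had a further CRE core after the start. These heavy chain promoters are related sequences and not independent cases: without gaps, H2-K1 and H2-D1 were 73.3% identical over 240 bases and H2-D1 and H2-Q7 58.2% over 263. H2-T23 held IRF and CCAAT matches only, Tap1 the CRE and CCAAT cores, Tapbp CCAAT cores only, and Erap1 an IRF match at its start. A match says that the letters are there, not that a factor binds. Windows were matched for 8 of the 10 genes, Tap2 and Nlrc5 being the others.

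**Figure D1:**
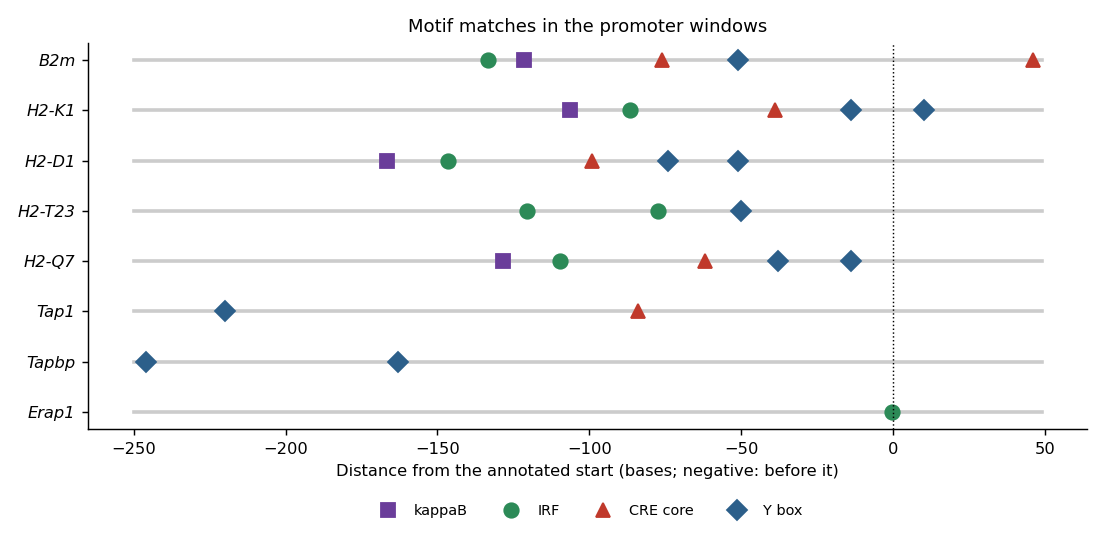
Positions of motif matches in the 8 promoter windows, in bases from the annotated start (x axis, negative before the start); each row is a gene and each symbol the centre of a match. H2-K1, H2-D1 and H2-Q7 show the same order of elements, shifted by where the start is annotated.

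Levels are in FPKM, which divides fragments by transcript length and by the size of the library, so genes can be compared per length. B2m stood highest, with a mean over the 6 libraries of 3362 FPKM, and ranked 4th of 9831 tested genes. H2-K1 (1619.7 FPKM) and H2-D1 (1353 FPKM), the classical heavy chains, ranked 12th and 15th. Next came the non-classical heavy chains H2-Q7 (209 FPKM) and H2-T23 (196 FPKM), whose ranges overlapped. Tapbp (93.8 FPKM), Tap1 (84.3 FPKM) and Tap2 (75.3 FPKM) formed a group in which neighbouring ranges overlapped, although each stood in this order within all 6 libraries. Nlrc5 (35.5 FPKM) and Erap1 (31.6 FPKM) were lowest, with overlapping ranges.

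**Figure D2:**
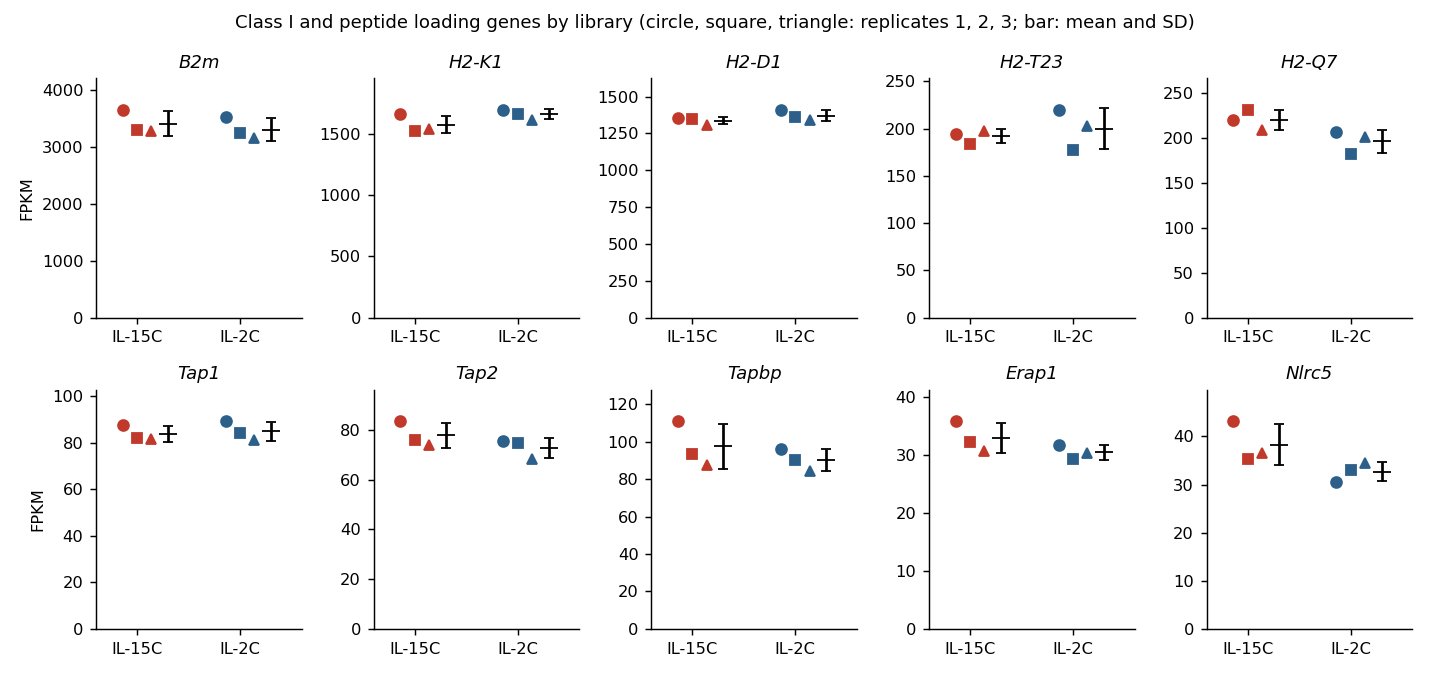
FPKM (y axis, from 0, its scale differing between panels) of the 10 genes in each library; circles, squares and triangles are replicates 1, 2 and 3, and the bar gives mean and SD of the 3 libraries of a group. Groups overlap for every gene except H2-Q7 and Nlrc5.

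The libraries implied 23526390 to 27212327 fragments each, from the deposited intervals read as Poisson error, a number that shared reads lower. All 10 markers of NK cells averaged above 1 FPKM, and their summed level was 10696 to 11443 FPKM in IL-15C and 9984 to 11424 in IL-2C. Markers of B cells, which carry much class I and class II, summed to 5.0 to 16.2 FPKM in IL-15C and 9.25 to 22.6 in IL-2C, 3 of the 8 averaging 1 FPKM or more. T cell markers summed to 64.7 to 87.9 FPKM and 66.4 to 71.9 (4 of 10 at 1 FPKM or more), neutrophil markers to 40.8 to 109.9 and 40.5 to 60.0 (6 of 7), and erythroid and platelet markers to 1.81 to 23.2 and 3.71 to 4.86 (1 of 8). Macrophage and dendritic cell markers, led by Itgax, which NK cells also express, summed to 268 to 283 FPKM and 222 to 236 (4 of 10). No marker was at 0 in every library. IL-15C replicate 1 had the highest sums for NK cells, T cells, neutrophils and erythroid cells. It also had the highest value of 5 of the 10 class I genes (B2m, Tap2, Tapbp, Erap1 and Nlrc5), and 9 of the 10 stood above their mean there. IL-2C replicate 1 stood high as well, with the highest value of 4 of the genes and 8 of the 10 above their mean. The part of these other cells in the results below was not tested.

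Changes were tested by limma on log2(FPKM + 1), over the 9831 genes with a mean of at least 1 FPKM and with Benjamini-Hochberg adjustment; a positive change means a higher level in IL-15C. Of all tested genes, 1.72% were higher in IL-15C and 4.72% lower with an adjusted p under 0.05. Scaling to a common median turned this split from 169 higher and 464 lower into 325 and 207, quantile normalization into 307 and 269 and TPM into 204 and 326. Of the 10 class I genes, 0 were higher and 0 lower. At an unadjusted p under 0.05, 2 were higher (H2-Q7 and Nlrc5) and 0 lower, against 6.48% and 20.4% of all tested genes. The same 2 were the genes whose IL-15C libraries all lay above the IL-2C libraries, as did 8.15% of all tested genes, and 0 lay below, as did 25.1% (33.3% in either direction). The median log2 change of the 10 genes was 0.07, with 6 above 0 and 4 below, and that of all tested genes -0.04. After scaling to a common median, 8 were above 0 and 2 below. Whether each library stands for its own mouse is not in the labels, and the spread that these p-values measure may thus be technical. In bulk RNA, fewer cells of a type and less RNA per cell cannot be told apart.

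**Figure D3:**
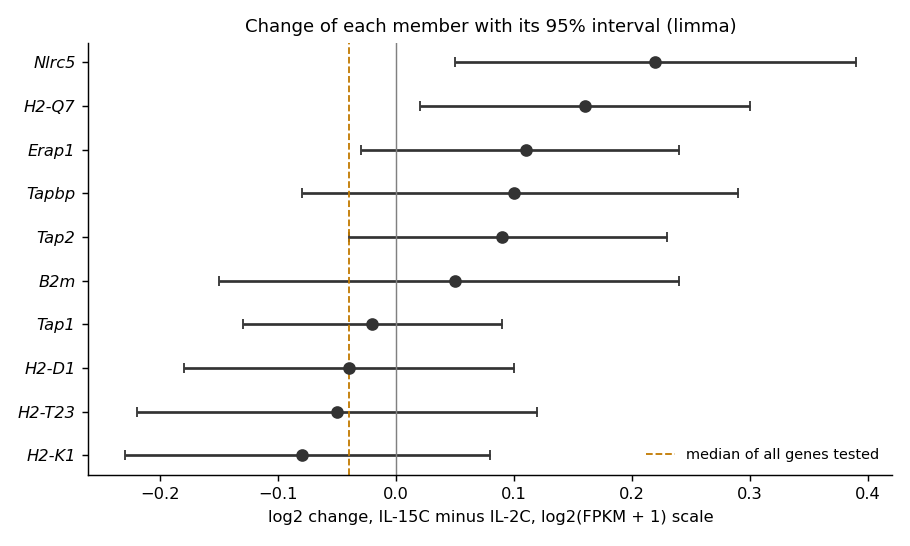
Log2 change of each gene (x axis, IL-15C minus IL-2C on the log2(FPKM + 1) scale) with its 95% interval from limma, not adjusted for the number of genes; the dashed line is the median of all tested genes. The intervals of Nlrc5 (0.05 to 0.39) and H2-Q7 (0.02 to 0.30) lie above 0 and the other 8 include 0.

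B2m, the light chain shared by all these heavy chains, lies on chromosome 2 at 122147687 to 122153082 (mm10). The IL-15C libraries held 3661, 3308 and 3276 FPKM and the IL-2C libraries 3529.7, 3244 and 3154. Replicate 1 was the highest of each group, and the groups overlapped. The means were 3415 FPKM ± 214 (SD, n = 3) and 3309 ± 196, with a log2 change of 0.05 ± 0.088 (SE; limma adjusted p = 0.773). The 95% interval of the fold, 0.899 to 1.18, bounds a difference that these libraries could have missed. The deposited locus of Patl2, listed at 0 FPKM in every library, covers that of B2m.

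H2-K1 encodes the classical heavy chain K and lies on chromosome 17 at 33996012 to 34000333. Its levels were 1661, 1529 and 1543 FPKM in IL-15C against 1700, 1667 and 1618 in IL-2C. The highest IL-15C library lay among the IL-2C values and the others below them. The log2 change was -0.08 ± 0.068 (SE), with a 95% interval of -0.23 to 0.08 and a limma adjusted p of 0.505. H2-D1, the classical heavy chain D, lies at 35263094 to 35267497 on the same chromosome. It measured 1355, 1344 and 1308 FPKM in IL-15C against 1411, 1359.6 and 1339 in IL-2C, with overlapping groups and the smallest relative spread within IL-15C among the 10 genes, a coefficient of variation of 1.86%. Its log2 change was -0.04 (95% interval -0.18 to 0.10; limma adjusted p = 0.739).

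H2-T23, on chromosome 17 at 36029977 to 36032701, encodes Qa-1, which shows signal peptides of other class I chains to CD94 and NKG2 receptors. It measured 194, 184 and 198 FPKM in IL-15C against 220.2, 177 and 203 in IL-2C. Both the highest and the lowest library were IL-2C libraries, which spread with a coefficient of variation of 11% against 3.72% in IL-15C. The log2 change was -0.05 (95% interval -0.22 to 0.12; limma adjusted p = 0.687). The deposited locus of A930015D03Rik, listed at 9.17 to 12.9 FPKM, covers all of that of H2-T23, and reads could be split between them.

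H2-Q7 encodes Qa-2, a non-classical heavy chain, and measured 220.5, 232 and 209 FPKM in IL-15C against 207, 182 and 201 in IL-2C. The groups did not overlap, though the lowest IL-15C and the highest IL-2C library were close. The means were 220.4 FPKM ± 11.3 (SD, n = 3) and 197 ± 13. The log2 change was 0.16 ± 0.062 (SE), with a limma adjusted p of 0.132 (range over the alternatives 0.0233 to 0.364, under 0.05 with array weights). Without IL-2C replicate 2 it was 0.11. This value cannot be read apart from H2-Q9. In the deposited tables H2-Q7 lies on chromosome 17 at 35439155 to 35443773 and H2-Q9 at 35439167 to 35443770, so that 99.7% of the H2-Q7 locus is shared. H2-Q9 measured 408, 326 and 329 FPKM in IL-15C against 404, 372 and 360.4 in IL-2C, a log2 change of -0.10. Summed, the pair gave 629, 558 and 538 FPKM in IL-15C against 611, 554 and 562 in IL-2C. The groups overlapped, and the ratio of their means was 0.999. The separation seen for H2-Q7 alone was therefore absent from the sum, which was formed after the values were seen and was not tested.

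The heavy chain genes are close paralogues, and their single values are uncertain. To show how alike they are, stretches of 50 bases were taken from the protein-coding transcripts of each gene in GENCODE M21 and looked up in the transcripts of all other genes. Another gene held 34.9% of the stretches of H2-Q7, 28.8% of H2-T23, 13.9% of H2-D1 and 6.87% of H2-K1. The share was 3.50% for Tapbp, 0.834% for Tap1, 0.708% for Tap2 and 0 for B2m, Erap1 and Nlrc5. With stretches of 100 bases, H2-Q7 kept 17.2%, H2-T23 7.28%, H2-D1 4.09% and H2-K1 0. No transcript named H2-Q9 was compared, so the share of H2-Q7 leaves that gene out. At 50 bases the genes sharing most with H2-D1 were H2-Q1 (6.68%) and H2-K1 (5.58%), not H2-L. The share of H2-D1 may thus leave out H2-L. The deposited interval of H2-D1 ran 4.17% above its estimate (median of 6 libraries) and that of H2-K1, at a similar level, 0.557%. H2-L, whose locus covers 81.9% of H2-D1, was listed at 45.5 to 58.7 FPKM. The bound was at 4.57% for H2-Q7, 1.83% for H2-T23 and 0.652% for B2m. A wide interval was not particular to the heavy chains: Tap1 had 4.43% and Tap2, at a similar level, 2.10%. What widened each interval was not tested.

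**Figure D4:**
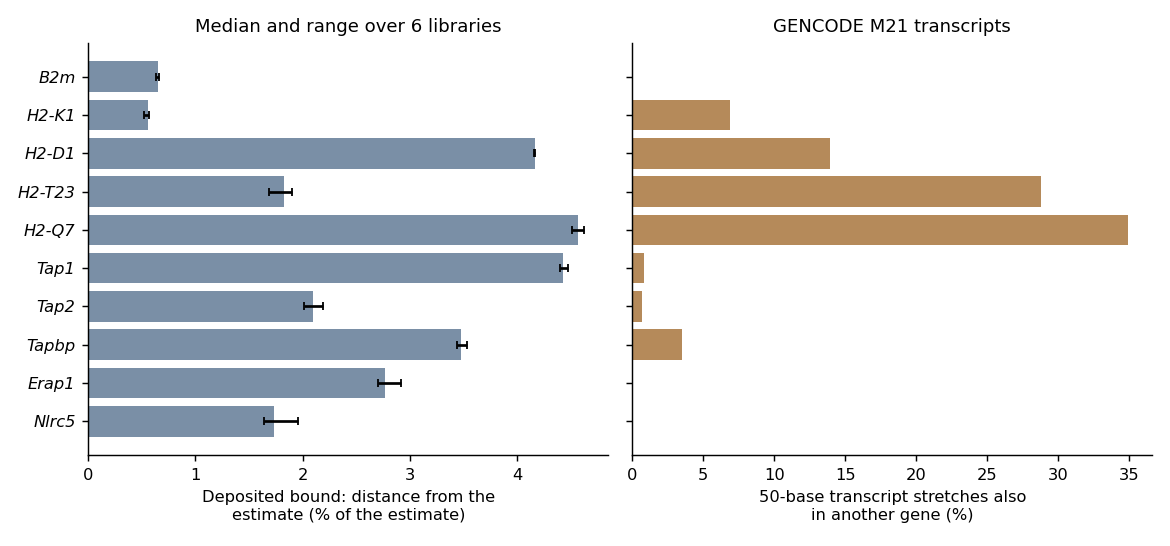
Left, distance of the deposited upper bound from the estimate, as a percentage of the estimate (x axis; bars are the median and whiskers the range over 6 libraries). Right, percentage of 50-base stretches of each gene's protein-coding transcripts that another gene also holds; H2-Q7 is highest at 34.9%, and B2m, Erap1 and Nlrc5 are at 0.

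The genes of peptide transport and loading overlapped between the groups. Tap1 lies on chromosome 17 at 34187556 to 34197225, next to the immunoproteasome gene Psmb9 at 34182099 to 34187330. It measured 87.5, 82.0 and 81.6 FPKM in IL-15C against 89.3, 84.3 and 81.1 in IL-2C, a log2 change of -0.02 (95% interval -0.13 to 0.09; limma adjusted p = 0.826). This was the narrowest interval of the 10 genes and the change nearest to 0. Its partner Tap2, at 34204479 to 34216321, measured 83.6, 75.9 and 74.0 FPKM in IL-15C against 75.5, 74.8 and 68.3 in IL-2C. The IL-15C values lay mostly higher, but the lowest of them was below 2 IL-2C libraries. The log2 change was 0.09 (95% interval -0.04 to 0.23; limma adjusted p = 0.341).

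Tapbp, the tapasin gene on chromosome 17 at 33919478 to 33929290, measured 111, 93.6 and 87.7 FPKM in IL-15C against 96.2, 90 and 84.3 in IL-2C. IL-15C replicate 1 was the only library above the highest IL-2C value. The log2 change was 0.10 (95% interval -0.08 to 0.29; limma adjusted p = 0.447). Erap1, on chromosome 13 at 74639872 to 74691875, measured 35.8, 32.2 and 30.7 FPKM in IL-15C against 31.7, 29.2 and 30.3 in IL-2C. Again IL-15C replicate 1 stood highest and the groups overlapped, with a log2 change of 0.11 (95% interval -0.03 to 0.24; limma adjusted p = 0.28). Without that library the changes were 0.01 for Tapbp, 0.05 for Erap1, 0.04 for Tap2 and -0.01 for B2m.

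Nlrc5, the coactivator, lies on chromosome 8 at 94472763 to 94527272. It measured 43.2, 35.2 and 36.5 FPKM in IL-15C against 30.6, 33 and 34.5 in IL-2C. All 3 IL-15C values were above the IL-2C values, the gap between the nearest libraries being smaller than the spread within either group. The means were 38.3 FPKM ± 4.31 (SD, n = 3) and 32.7 ± 1.98, and the log2 change of 0.22 ± 0.076 (SE) was higher than that of 96.9% of tested genes. It did not pass the test (limma adjusted p = 0.11, unadjusted p = 0.0186), and the adjusted p ranged from 0.0758 to 0.29 over the alternatives. Without IL-15C replicate 1 the change was 0.13. For Nlrc5 the authors' deposited table held group values of 51.8 FPKM in IL-15C (interval 44.0 to 59.6) and 43.0 in IL-2C (36.6 to 49.5). The authors' deposited table gave overlapping group intervals for all 10 genes, with 8 higher in IL-15C and 2 lower.

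Of 23 tested genes that regulate class I transcription or carry interferon signals, 0 were higher, 2 lower and 21 did not pass (median log2 change 0.01). Of all tested genes, 1.72% were higher and 4.72% lower. Ifnar2, a chain of the type I interferon receptor, was lower in IL-15C, at 27.9, 27.4 and 27.5 FPKM against 32.0, 32.3 and 32.1 (log2 change -0.21 ± 0.037 SE, limma adjusted p = 0.0191). It lost the call without IL-15C replicate 2, IL-15C replicate 3, IL-2C replicate 1 or IL-2C replicate 2, with a highest adjusted p of 0.0898. Rfxap, a subunit of the RFX complex that binds the X box beside Nlrc5, was lower at 8.19, 8.18 and 8.12 FPKM against 9.65, 9.25 and 9.24 (log2 change -0.18 ± 0.042 SE, limma adjusted p = 0.0415). That call ended with any library left out and under each of the 3 other scalings. Rfx5, another RFX subunit, had 0.04 and the interferon-induced factor Irf1 0.06, neither past the test. Jak1 had -0.17 and the feedback inhibitor Socs1 0.31, with IL-15C replicate 1 at 11.7 FPKM and the other 5 libraries at 6.44 to 7.43. Ciita, the class II counterpart of Nlrc5, was at 0.055 to 0.39 FPKM, under the filter. Ifng, the gene of the interferon that induces class I genes, was higher in IL-15C by 0.36 ± 0.064 (SE; limma adjusted p = 0.0197), a call that ended when IL-2C replicate 1 or IL-2C replicate 2 was left out (highest adjusted p 0.0687).

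Of 11 tested proteasome subunits, 0 were called, beside 6.44% of all tested genes, and 7 were above 0 (median log2 change 0.06). Below 0 were 36.4% of these subunits and 64.7% of all tested genes. In 2 of the 11 all IL-15C values lay above the IL-2C values, as in 8.15% of all tested genes. The catalytic subunits of the immunoproteasome had 0.06 for Psmb8, -0.0035 for Psmb9 and 0.16 for Psmb10. Pomp, the assembly factor of the proteasome, had 0.21 with groups that did not overlap and a limma adjusted p of 0.0755, the activator subunits Psme1 and Psme2 had 0.13 and 0.17, and the catalytic subunit Psmb6 of the standard proteasome had 0.06. Of 15 further tested genes of loading, folding and trimming, 0 were called (median 0.02), again beside 6.44% of all tested genes. Tapbpl, a tapasin relative that edits peptides outside the loading complex, came nearest, at 40.5, 36.7 and 34.0 FPKM in IL-15C against 32.5, 31.9 and 30.1 in IL-2C (log2 change 0.23, limma adjusted p = 0.0611). The chaperone gene Calr had 0.16, Hspa5 0.14 and Prkcsh 0.09, and the peptidase gene Tpp2 had -0.09.

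**Figure D5:**
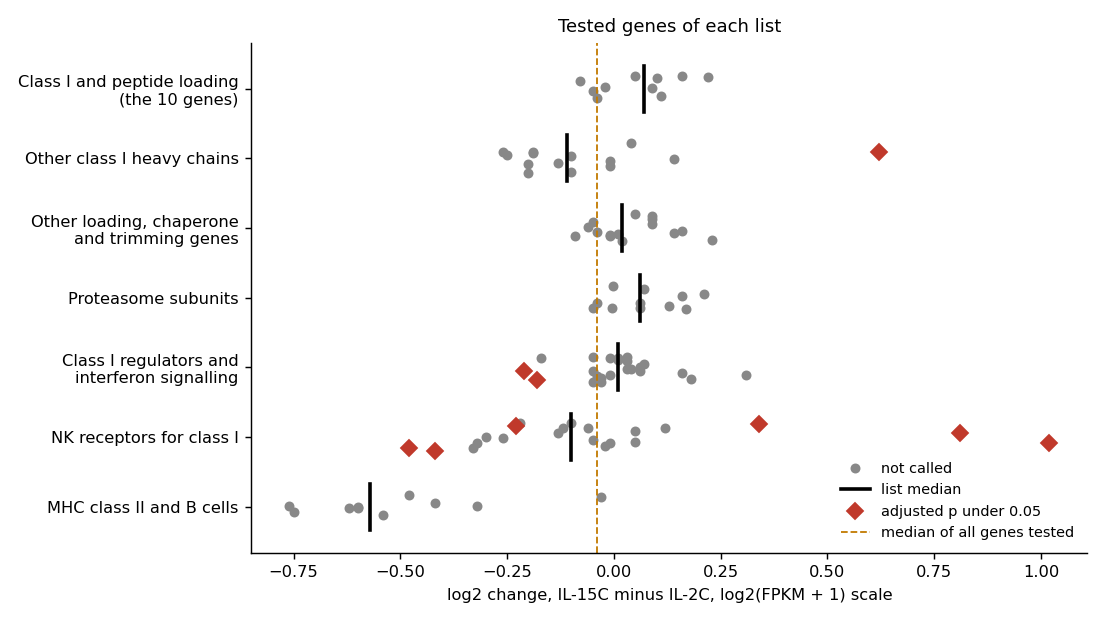
Log2 change (x axis, IL-15C minus IL-2C on the log2(FPKM + 1) scale) of every tested gene of each list; diamonds are genes with an adjusted p under 0.05, thick bars list medians and the dashed line the median of all tested genes. The 10 class I and peptide loading genes lie between -0.08 and 0.22 with no diamond.

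Of 14 other tested class I heavy chain genes, 1 was higher, 0 lower and 13 did not pass, beside 1.72% higher and 4.72% lower of all tested genes. The median log2 change was -0.11, with 11 of the 14 (78.6%) below 0, against 64.7% of all tested genes. H2-Q10, a heavy chain best known from liver and serum, was higher at 5.45, 4.87 and 4.60 FPKM in IL-15C against 3.34, 2.82 and 2.51 in IL-2C. The log2 change of H2-Q10 was 0.62 ± 0.086 (SE; limma adjusted p = 0.0105), and the call ended without IL-2C replicate 2 (0.0521). Another gene held 7.73% of its 50-base stretches, and its deposited bound lay 12.3% from the estimate, so the value is uncertain. In 6 of the 14 genes all IL-15C values lay below the IL-2C values, as in 25.1% of all tested genes. In 1 of the 14, H2-Q10, all lay above, as in 8.15% of all tested genes. Among the 6 were Cd1d1, H2-M3, H2-K2 and H2-T10, none of which passed. Their log2 changes were -0.26, -0.20, -0.25 and -0.20, with limma adjusted p of 0.0545, 0.0569, 0.0578 and 0.0596.

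Of 21 tested NK receptor genes that bind class I or resemble such receptors, 3 were higher and 3 lower, beside the 1.72% and 4.72% of all tested genes. Lilrb4a, an inhibitory receptor gene, was higher at 24.5, 13.1 and 12.6 FPKM in IL-15C against 6.50, 7.71 and 7.90 in IL-2C (log2 change 1.02 ± 0.204 SE, limma adjusted p = 0.0269). IL-15C replicate 1 stood far above the other libraries, and the call ended without any single IL-2C replicate. Its neighbour Lilr4b had 0.81, with the same library highest at 23 FPKM. Klra22, a Ly49 gene, was lower at 4.88 FPKM ± 0.688 (SD, n = 3) in IL-15C against 6.83 ± 0.483 (limma adjusted p = 0.0289), a call lost without IL-15C replicate 2 or any single IL-2C replicate (highest adjusted p 0.115). The others were Klra5 (higher, 0.34) and Klra9 and Klra21 (lower, -0.23 and -0.48). Each of the 6 genes lost its call in at least 3 of the 6 omissions of 1 library. All belong to families of closely similar sequence, which makes each value uncertain. The deposited locus of Klra21, at 130115219 to 130129879 on chromosome 6, is nearly that of Klra8, at 130115226 to 130129898. Klra21 was listed at 5.60 to 11.4 FPKM and Klra8 at 729.9 to 1139. The locus of Klra22, at 129972082 to 130380808, covers those of other Ly49 genes, among them Klra8 and Klra9. How reads were split between such genes was not tested. The CD94 gene Klrd1 had -0.22 (limma adjusted p = 0.0512) and that of its partner NKG2A, Klrc1, -0.06. Of 10 tested class II and B cell genes, 0 were called, all 10 were below 0, and their median was -0.57. Of all tested genes, 64.7% were below 0. In 1 of the 10 all IL-15C values lay below the IL-2C values, as in 25.1% of all tested genes. H2-DMb1, which helps load class II, came nearest, with IL-15C values all below the IL-2C values and a log2 change of -0.32 (limma adjusted p = 0.0659). The B cell genes Cd22 and Cd79b had -0.42 and -0.54, and H2-Ob, an inhibitor of class II loading, had -0.48. H2-Aa, a class II chain with a change of -0.75, ranged from 1.48 FPKM in IL-15C replicate 2 to 11.5 in IL-2C replicate 2. Cd22, Cd79b and H2-Ob were lowest and highest in the same libraries, while H2-DMb1 was lowest in IL-15C replicate 3. The shared sign of these genes is therefore not a set of independent cases.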

How the data were processed

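The submitters' processing notes name mm10, TopHat2 2.0.13 and Cufflinks 2.2.1; the gene annotation was not given in the sources used here. For each library the authors deposited FPKM values with interval bounds, and a Cuffdiff table of group FPKM values that was scaled separately, per the file headers. Count models do not suit FPKM and were not used. Duplicate rows (280 genes) were added up, and 10 genes with a failed estimate in any library were left out.

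Genes with a mean of at least 1 FPKM (9831) were tested with limma 3.58.1 (R 4.3.3) on log2(FPKM + 1) with an intensity trend, two-sided, with Benjamini-Hochberg adjustment at 0.05 over all tested genes. This scale understates the change of low genes. The script was tested on simulated data. Its rule for recovery covered only changes larger than any seen in the 10 genes. It thus does not show that changes of their size would be found. All 10 genes of the set passed the filter, so the exact test planned for genes under it was not needed. Named besides them are the genes of smallest adjusted p in each list, up to 5, and Ifng, Irf1, Psmb8, Psmb9, Psmb10, Ciita and Rfx5. H2-Q9, H2-L, H2-Q6, H2-Q8, Klra8, Klra21, Klrd1, Klrc1, A930015D03Rik and Patl2 were named after their values were seen. One further gene covered by these choices is not reported here. The genes and lists were chosen with earlier results of these data known. Alternatives were other pseudocounts (0.1 and 5), filters (none and 5 FPKM), scalings (a common median, a common sum or TPM, quantiles), limma with array weights or without the trend, a replicate block and leaving out each library. Positions are those of the files on mm10 with 1 added to the start, which made 61.8% of 22916 loci start as in RefSeq, against 3.19% as written. Python 3.11.15, pandas 2.3.3, numpy 2.4.6 and matplotlib 3.10.9 were used.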

Additional observations from a re-analysis of the deposited data

How the results depend on the processing

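The count of class I and peptide loading genes lower in IL-15C was 0 under all 16 alternatives, and the count higher was 0 under 15 and 1, H2-Q7 at 0.23, with array weights. Of 160 recomputed log2 changes of the 10 genes, 153 kept their direction and side of the threshold. The sign turned for B2m without IL-15C replicate 1 (-0.01), H2-D1 after common-median scaling (0.01), H2-T23 with array weights (0.02) and without IL-2C replicate 1 (0.02), and Tap1 after common-median scaling (0.02) and without IL-2C replicate 1 (0.02), all values near 0. Over the omissions of single libraries, B2m ranged from -0.01 to 0.09, H2-T23 from -0.14 to 0.02 and Tap1 from -0.05 to 0.02. Over all genes, 169 higher and 464 lower became 6 and 9 with no filter, 325 and 207 after common-median scaling, 307 and 269 after quantile normalization and 440 and 1667 with array weights; the cause was not tested. Omitting single libraries gave counts from 14 to 175 higher and from 15 to 572 lower, the lowest without IL-2C replicate 2 and the highest without IL-15C replicate 1. Over all tested genes, same-numbered libraries did not deviate together (correlations of -0.0292, -0.156 and -0.0244 over 9831 genes). Such correlations cannot exclude a pairing that touches only some genes. For the 10 genes, replicate 1 stood high in both groups, with 9 above their mean in IL-15C replicate 1 and 8 in IL-2C replicate 1. With the replicate block 171 genes were higher and 346 lower, and 0 of the 10. FPKM holds no counts, so depth per gene is known only through the deposited intervals, which cover error within a library and not between libraries.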

Other observations

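Heavy chain and light chain can be set against each other within a library, where the scaling of the library cancels. This ratio was formed after the values had been seen and was not tested. The summed FPKM of H2-K1 and H2-D1 divided by that of B2m was 0.824, 0.868 and 0.87 in IL-15C against 0.881, 0.933 and 0.938 in IL-2C. Every IL-15C library thus lay below every IL-2C library. How many other genes separate in this way when divided by B2m was not computed. Without any ratio, 25.1% of all tested genes lay wholly below in IL-15C. B2m itself had a log2 change of 0.05, and the median of all tested genes was -0.04. The sum over 23 heavy chain genes, in which reads moving between paralogues partly cancel, gave 1.32, 1.39 and 1.38 times B2m in IL-15C. In IL-2C it gave 1.40, 1.48 and 1.49. This sum is not a separate case, as H2-K1 and H2-D1 held 2913 of its 4657 FPKM in the IL-15C means. The Qa-2 group of H2-Q6, H2-Q7, H2-Q8 and H2-Q9 gave 0.257, 0.262 and 0.246 against 0.257, 0.263 and 0.273, with overlapping groups. A difference in such a ratio does not show which of its terms moved.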
